A study of Mus musculus with 6 samples.

Results

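A set of 9 long noncoding RNAs (Malat1, Neat1, Meg3, Rian, Mirg, Miat, Snhg11, Snhg1 and Gas5) was looked up by exact gene symbol in a table of read counts from mouse hippocampal neurons, and 8 of them were analysed among 37411 gene rows. Snhg1 was not analysed here. RNA came from primary hippocampal cultures of CD-1 IGS mice, prepared from P0 pups and kept for 16 days in vitro. In 3 libraries (1, 2 and 3) the cultures had received the solvent dimethyl sulfoxide (DMSO), and in 3 (4, 5 and 6) an equal volume carrying 50 µM forskolin, for 30 min in each case. Forskolin is a plant compound that activates adenylyl cyclase and so raises cyclic AMP (cAMP). Apart from the agent the labels give the groups the same strain, tissue and culture age. They give neither a batch nor a separate culture or animal for each library, so p-values measure the spread between these libraries, which may be technical.

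Long noncoding RNAs act as RNA and are not translated into a conserved protein. Malat1 is a nuclear transcript held in nuclear speckles, where splicing factors gather. Neat1, its neighbour, is the architectural RNA of paraspeckles. Meg3, Rian and Mirg are read from the maternal chromosome of the imprinted Dlk1-Dio3 domain, and Rian and Mirg carry arrays of small nucleolar RNAs (snoRNAs) and microRNAs in their introns. Miat, also called Gomafu, is a neuronal nuclear RNA. Gas5, Snhg1 and Snhg11 are snoRNA host genes, whose introns release snoRNAs after splicing. The spliced RNAs of Gas5 and Snhg1 are known substrates of nonsense-mediated decay. A rise in cAMP activates protein kinase A, which phosphorylates the factor CREB, and CREB binds the cAMP response element (CRE).

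All 9 genes carry the annotation tag of a small-RNA host in GENCODE M21 (mouse GRCm38). GENCODE classes Snhg11 as protein coding and the other members as long noncoding, while RefSeq classes Snhg11 as long noncoding too. Malat1 (chr19:5795690-5802672) and Neat1 (chr19:5824708-5845478) lie on the minus strand, 22.0 kb apart. Meg3 (chr12:109541001-109571726), Rian (chr12:109603940-109661716) and Mirg (chr12:109729764-109749460) follow each other on the plus strand, with gaps of 32.2 and 68.0 kb. Miat is at chr5:112213228-112229395 on the minus strand, Snhg11 at chr2:158375638-158386145 and Gas5 at chr1:161034422-161038539, both on the plus strand.

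Promoter windows were shown for the members whose window holds a CRE or its core, because forskolin acts through cAMP. Each window runs from 250 bases before to 50 bases after a gene start in RefSeq (GRCm38.p6), 5′ to 3′ on the gene's strand. RefSeq windows were matched for 8 of the 9 symbols, Neat1 being the one without. Capitals mark the palindromic CRE TGACGTCA, or the core TGACG read on either strand (TGACG or CGTCA), which the palindrome contains. Meg3 has the palindrome at -57 in its upstream window (chr12:109540746-109541045, plus strand), and Gas5 has it at -46 in its downstream window (chr1:161034916-161035215, plus strand). Malat1 (chr19:5802623-5802922, minus strand) has 3 cores, at -154, -45 and -3, and no palindrome.
Meg3: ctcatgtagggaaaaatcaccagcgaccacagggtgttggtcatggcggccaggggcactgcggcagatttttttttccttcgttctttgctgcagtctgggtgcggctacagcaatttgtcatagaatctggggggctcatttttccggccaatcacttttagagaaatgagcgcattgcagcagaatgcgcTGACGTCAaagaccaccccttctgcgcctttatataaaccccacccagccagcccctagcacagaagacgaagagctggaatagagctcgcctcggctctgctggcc
Gas5: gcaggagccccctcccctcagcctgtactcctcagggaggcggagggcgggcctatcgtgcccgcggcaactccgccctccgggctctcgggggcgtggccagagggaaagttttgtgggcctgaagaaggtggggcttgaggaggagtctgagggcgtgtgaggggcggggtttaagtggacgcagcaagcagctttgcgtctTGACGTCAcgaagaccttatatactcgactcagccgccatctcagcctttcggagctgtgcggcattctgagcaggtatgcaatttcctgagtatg
Malat1: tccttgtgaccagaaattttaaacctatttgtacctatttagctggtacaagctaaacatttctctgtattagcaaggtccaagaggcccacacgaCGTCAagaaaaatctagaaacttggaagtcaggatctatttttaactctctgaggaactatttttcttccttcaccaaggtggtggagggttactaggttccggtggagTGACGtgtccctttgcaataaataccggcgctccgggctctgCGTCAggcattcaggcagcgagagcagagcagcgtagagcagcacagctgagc
Of 32851 such windows over all genes, 588 (1.79%) hold the palindrome and 6837 (20.81%) hold a core. Neither was found in the windows of Rian, Mirg, Miat, Snhg11 and Snhg1, in the upstream window of Gas5 or in the downstream window of Meg3. A match is a description of the letters in the window and no binding was measured.

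The libraries differed in depth, in marker genes and in short RNAs. Total counts ran from 28342764 to 47548379. Of 8 early cAMP response genes used as a check of the treatment, 4 were called higher and 7 lay above every DMSO library in every forskolin library, Fos, an immediate-early transcription factor, among them (log2 change 2.46; adjusted p = 0.0375 by edgeR). Of all tested genes 0.172% were called higher by edgeR, and 10.2% were higher with no overlap between the groups. The 4 calls became 7 with DESeq2 and 8 without library 6, where 4.89 and 16.5% of all tested genes were called higher. With the GC trend removed or the snoRNA share as a covariate the calls were lost, Fos included. They were also lost with library 1, 2, 3, 4 or 5 left out. In each of these settings 0 of all tested genes were called. Library 6 was the lowest of the forskolin libraries in this check too, Fos being at 186, 109 and 100.5 CPM in libraries 1 to 3 and at 830, 901 and 447 CPM in libraries 4, 5 and 6, and Klf4, a zinc finger transcription factor, at 59.2, 52.2 and 11.6 CPM in libraries 4, 5 and 6. Libraries differed in glial RNA: 12 microglia markers summed to 35.6, 25.4 and 23.3 CPM (counts relative to library size, with TMM scaling) in libraries 1 to 3, and to 245, 405 and 25.6 CPM in libraries 4, 5 and 6. None of these 12 was at 0 counts in all 3 DMSO libraries. The 14 neuron markers summed to 3985, 4732 and 5222 CPM under DMSO, then to 3074, 3327 and 4963 CPM in libraries 4, 5 and 6. Library 6 therefore lay with the DMSO libraries in both marker sums, and libraries 4 and 5 stood apart. In bulk RNA, fewer cells of a type and less RNA per cell cannot be told apart. Counts in snoRNA rows split the libraries another way, across the groups: they took 0.142, 0.114 and 0.104% of counts in libraries 2, 4 and 5, against 0.0353, 0.0231 and 0.0391% in libraries 1, 3 and 6.

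Levels spanned a wide range. In DMSO libraries Malat1 stood at 962 ± 231 CPM (SD, n = 3), Rian at 250 ± 52.7 CPM, Meg3 at 71.7 ± 27.6 CPM and Miat at 34.5 ± 5.20 CPM. Gas5 stood at 28.9 ± 3.70 CPM, Mirg at 16.1 ± 3.27 CPM, Snhg11 at 12.7 ± 5.79 CPM and Neat1 at 10.1 ± 3.16 CPM. Counting error was small beside these spreads, the lowest count of any member being 208 (Snhg11, library 1). Per kilobase of the longest annotated transcript, the DMSO level was 138 ± 33.1 CPM for Malat1, 31.0 ± 6.51 for Rian and 11.3 ± 1.45 for Gas5, which do not overlap within their spread. On the same per-kilobase scale Meg3 (4.93 ± 1.90), Mirg (4.21 ± 0.856) and Miat (3.77 ± 0.567) did not differ beyond their spread. Snhg11 (2.17 ± 0.987) and Neat1 (0.485 ± 0.152) came last. The order depends on the isoform assumed: Neat1 is taken here at its full 20771 bases, although it also has a much shorter isoform. By mean CPM over the 6 libraries Malat1 ranked 2 among 8471 long noncoding rows, Rian 5, Meg3 12, Gas5 20, Miat 21, Mirg 33 and Neat1 34. Gm26917, a noncoding row that ranked above Malat1 in this mean, was above it in the 3 DMSO libraries and below it in the 3 forskolin libraries.

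**Figure D1:**
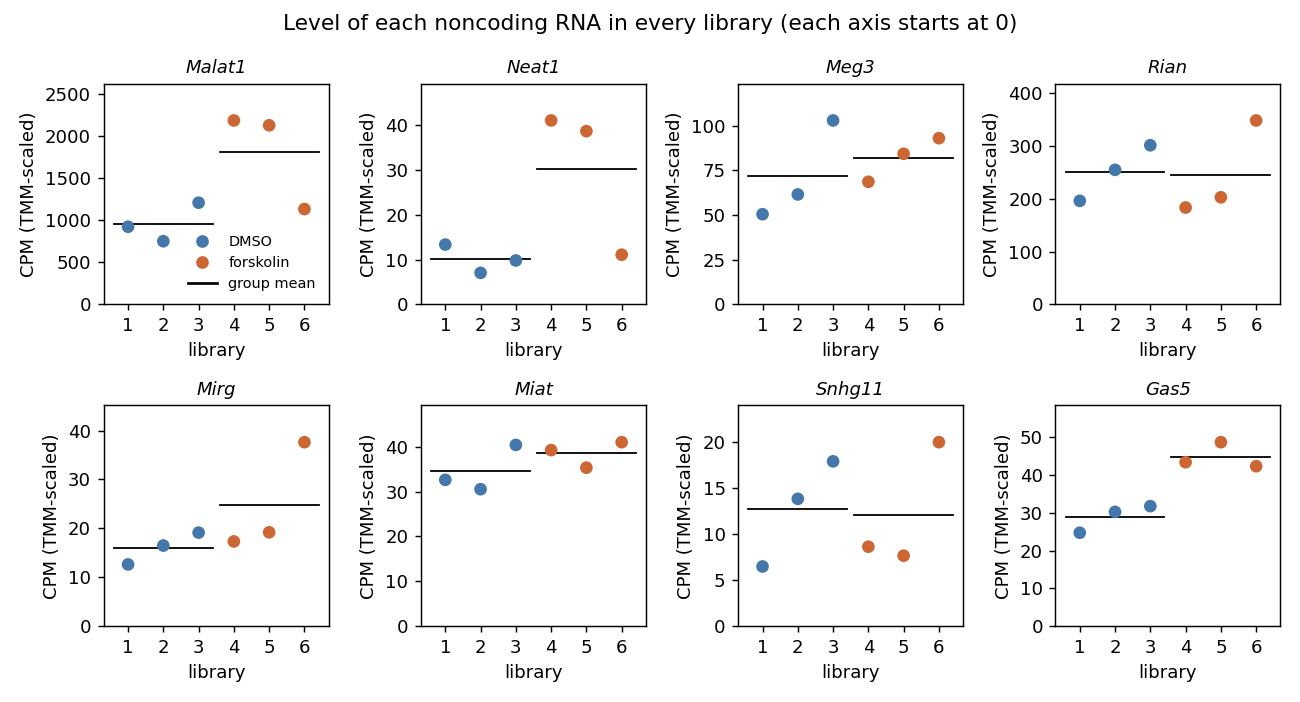
Level of each of the 8 noncoding RNAs in CPM (vertical axis, starting at 0) in DMSO libraries 1 to 3 and forskolin libraries 4 to 6, with the group mean as a line. Gas5 is the one whose groups do not overlap; Malat1 and Neat1 are high in libraries 4 and 5, with library 6 near or within the DMSO values.

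None of the 8 members was called with edgeR's quasi-likelihood test at a Benjamini-Hochberg adjusted p-value under 0.05, where 1.51% of 16233 tested genes were (0.172% higher and 1.34% lower). All 8 passed the filter on low counts and were tested. Without adjustment, 3 members had a p-value under 0.05 (Malat1, Neat1 and Gas5, each of them higher), against 22.3% of all tested genes in either direction and 10.6% in the higher direction. DESeq2 on the same libraries called these 3 higher, where it called 4.89% of genes higher and 10.9% in all. Without library 6, edgeR called the same 3 higher, where 16.5% of genes were (33.6% in either direction), and limma-voom with library quality weights did so too, where 21% were (41.9% in either direction). The groups did not overlap for 1 member, Gas5, all of whose forskolin libraries lay above all DMSO libraries, as did 10.2% of tested genes. The median log2 fold change of the 8 was 0.41, beside 0.02 over all tested genes.

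Gas5, a snoRNA host RNA first known from growth-arrested cells, had the smallest p-value of the 8. It stood at 24.7, 30.3 and 31.8 CPM in DMSO libraries 1 to 3, then at 43.4, 48.7 and 42.3 CPM in forskolin libraries 4 to 6. Every forskolin value was above every DMSO value, library 6 included, and the coefficient of variation of the forskolin values was 7.61%. The log2 fold change was 0.63 ± 0.13 (SE), with an adjusted p of 0.0750 by edgeR, so that Gas5 did not pass the threshold with all 6 libraries. The make-up of the libraries separated the groups too. The 2 mitochondrial ribosomal RNA rows held 14.0, 23.7 and 19.8% of counts under DMSO and 29.6, 33.3 and 26.9% under forskolin. Protein-coding rows held 80.2, 71.2 and 75.3% and then 66.2, 63.0 and 69.9%. With mitochondrial rows left out of the library size, the log2 fold change of Gas5 was 0.61 ± 0.13 (SE; adjusted p = 0.0755 by edgeR). Beyond that refit, the part of library make-up in the Gas5 values was not tested. Gas5 passed with DESeq2 (adjusted p = 0.00146), with edgeR without library 6 (adjusted p = 0.0144) and with quality weights in limma-voom (adjusted p = 0.00722). Its longest transcript has a GC content of 42.3%, at the 14.3 percentile of tested genes. With each library's trend on GC content removed, the log2 fold change of Gas5 was 0.35 ± 0.11 (SE; adjusted p = 0.347 by edgeR), where 0 of all tested genes were called and 1949 had an unadjusted p under 0.05. With library 6 left out as well it was 0.34 ± 0.11 (SE; adjusted p = 0.0561 by edgeR). Gas5 was not called in that setting, where 32% of all tested genes were. Gas5 overlaps Zbtb37, a zinc finger gene on the opposite strand, over 428 bases at its upstream end. Zbtb37 stood at 16.1, 13.0 and 20.7 CPM under DMSO, then at 24.7, 28.4 and 15.1 CPM in libraries 4, 5 and 6, its lowest forskolin value being library 6. The strand setting of the counts is not given in the sources used here, so reads in the shared stretch cannot be told apart.

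The snoRNAs within Gas5 did not follow their host across libraries. C/D box snoRNAs are short RNAs that guide ribose methylation of ribosomal RNA, and GENCODE places 9 snoRNA rows inside Gas5. Of these, 2 that carry both boxes are shown, with 1 from Rian that had another pattern, read from GENCODE M21. Capitals mark a C box TGATGA within the first 20 bases and a D box CTGA within the last 15 bases.
Snord47: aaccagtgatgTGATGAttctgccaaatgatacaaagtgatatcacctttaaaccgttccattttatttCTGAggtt
Snord80: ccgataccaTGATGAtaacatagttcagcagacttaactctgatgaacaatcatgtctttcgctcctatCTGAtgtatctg
Gm23600: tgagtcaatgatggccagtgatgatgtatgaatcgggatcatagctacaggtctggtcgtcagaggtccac
Snord47 is at chr1:161038082-161038158, Snord80 at chr1:161037601-161037681 and Gm23600 at chr12:109643748-109643818, all on the plus strand. Both boxes in this strict form were found in 7 of the 9 Gas5 rows and 5 of 8 rows inside Snhg1. They were found in 7 of 13 inside Rian and 0 of 2 inside Snhg11, against 20.24% of 1507 snoRNA models. Neither these rows nor the models were sorted into C/D box and other snoRNAs. Gm23600 has neither.

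The 9 Gas5 snoRNA rows summed to 151, 3368 and 242 counts in DMSO libraries 1 to 3, then to 3908, 3465 and 295 counts in forskolin libraries 4 to 6. As CPM of the unscaled library totals these sums were 5.33, 108 and 6.85 under DMSO, then 82.2, 93.8 and 8.64 in the forskolin libraries (exact two-sided permutation test, p = 0.8, where 3 libraries against 3 cannot give a p-value under 0.1). Libraries 2, 4 and 5 were high, 1, 3 and 6 were low, and each of the 9 rows showed this split. How many of all tested genes show it is not given here. Among the DMSO libraries the host RNA did not show the split: Gas5 was at 30.3 CPM in library 2, between libraries 1 and 3. Among the forskolin libraries Gas5 was lowest in library 6, at 42.3 CPM against 43.4 and 48.7 CPM in libraries 4 and 5. Snord47 alone had 2, 242 and 9 counts under DMSO, then 255, 251 and 3 counts in the forskolin libraries. Snord80 had 10, 535 and 19 counts and then 591, 472 and 35 counts.

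The 8 snoRNA rows inside Snhg1 (chr19:8723475-8726443, plus strand) summed to 15.6, 122 and 8.92 CPM of the unscaled totals under DMSO, then to 93.6, 85.7 and 24.4 CPM under forskolin (exact two-sided permutation test, p = 0.8). There 7 of the 8 rows were higher in every one of libraries 2, 4 and 5 than in libraries 1, 3 and 6. Snord22, the longest of them, did not follow the split, at 10.5, 8.36 and 5.41 CPM under DMSO, then 11.2, 6.52 and 17.4 CPM in the forskolin libraries. The 13 snoRNA rows inside Rian, of which 6 had any count, summed to 1.69, 3.04 and 3.71 CPM on that scale, then to 2.82, 1.89 and 4.48 CPM, with none of the 13 showing the split. Gm23600 held most of the Rian counts, with 34, 63 and 108 counts under DMSO, then 64, 39 and 124 counts in libraries 4, 5 and 6. Compared among libraries alike in snoRNA counts, the log2 ratio of Gas5 was 0.60 for libraries 4 and 5 against library 2, and 0.59 for library 6 against libraries 1 and 3. These sets of libraries were formed after the counts were seen, and the ratios were not tested. With the snoRNA share of each library as a covariate in edgeR, the log2 fold change of Gas5 was 0.61 ± 0.15 (SE; adjusted p = 0.177), and 0 genes of 16233 were called, with 2513 at an unadjusted p-value under 0.05.

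**Figure D2:**
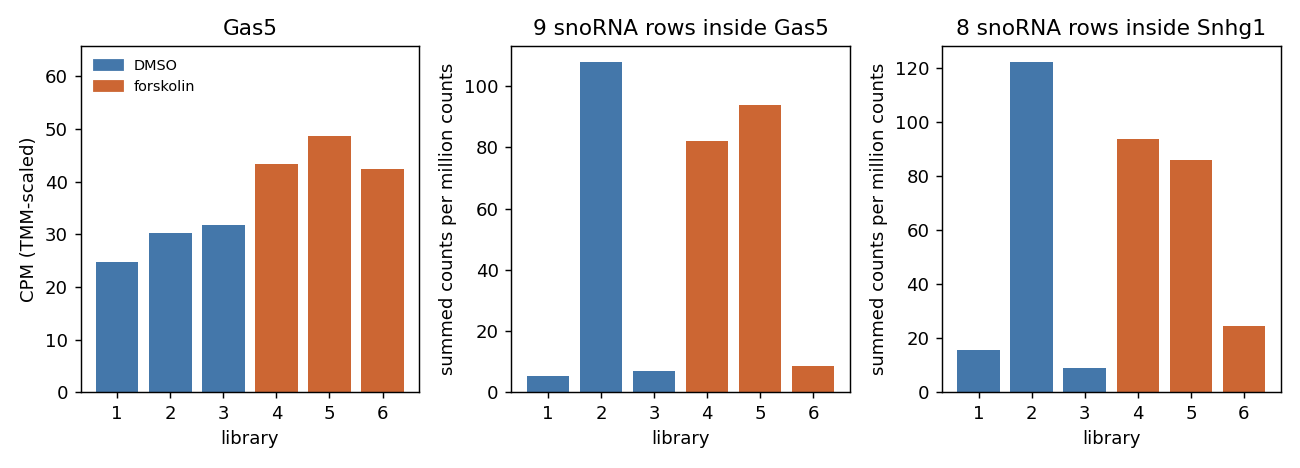
Level of Gas5 in CPM (left) and the summed unscaled CPM of the 9 snoRNA rows inside Gas5 (middle) and the 8 inside Snhg1 (right), by library, with bars from 0 coloured by group. Gas5 is higher in libraries 4, 5 and 6, whereas both snoRNA sums are high in libraries 2, 4 and 5.

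Malat1, the RNA of nuclear speckles, stood at 924, 752 and 1210 CPM in DMSO libraries 1 to 3, then at 2188, 2131 and 1135 CPM in forskolin libraries 4 to 6. Libraries 4 and 5 were above every other library, and library 6 lay below DMSO library 3, so that the groups overlapped. The log2 fold change was 0.92 ± 0.31 (SE; adjusted p = 0.167 by edgeR). Without library 6 it was 1.15 ± 0.20 (SE; adjusted p = 0.00867 by edgeR). Among libraries alike in snoRNA counts, the log2 ratio of Malat1 was 1.52 for libraries 4 and 5 against library 2, and 0.10 for library 6 against libraries 1 and 3.

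Neat1, the RNA of paraspeckles, stood at 13.4, 7.05 and 9.81 CPM under DMSO, then at 41.0, 38.6 and 11.1 CPM in libraries 4, 5 and 6. Library 6 lay inside the DMSO range and libraries 4 and 5 at about the same high level. The log2 fold change, the largest of the 8, was 1.59 ± 0.50 (SE; adjusted p = 0.153 by edgeR). It was 1.60 with DESeq2 (adjusted p = 0.0121) and 1.97 ± 0.25 (SE) with edgeR without library 6 (adjusted p = 0.00412). The authors' deposited table for this comparison holds 132 genes whose ranks run to 1224, so it is a selection from a longer ranking, and Neat1 is the 1 member in it. In the authors' deposited table it has rank 201, a log2 fold change of 1.68 with a standard error of 0.28, and an adjusted p of 2.58e-07. With the GC trend removed, Neat1 had a log2 fold change of 1.52 (adjusted p = 0.355 by edgeR) and Malat1 one of 0.65 (adjusted p = 0.415 by edgeR), their GC contents being 47.3 and 42.5%. Neat1 made up 1.42, 0.929 and 0.804% of the counts of Neat1 and Malat1 under DMSO, then 1.84, 1.78 and 0.969% in libraries 4, 5 and 6 (exact two-sided permutation test, p = 0.2, and 0.267 adjusted over the 4 pairs of members set against each other).

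Microglia markers moved with these RNAs over the libraries. On the log2 scale relative to the DMSO mean, Malat1 was at 1.21, 1.17 and 0.27 and Neat1 at 2.07, 1.99 and 0.19 in libraries 4, 5 and 6, while the median of the 12 microglia markers was at 4.50, 5.23 and -0.11. By edgeR with all 6 libraries 0 of the 12 markers were called. In each of the 4 settings under which Malat1 and Neat1 were called, 11 were called higher. These were edgeR without library 6, DESeq2 with all 6 libraries, quality weights, and the GC trend removed without library 6. In them 16.5, 4.89, 21 and 16% of all tested genes were called higher. Of the 8 early cAMP response genes, 8, 7, 8 and 8 were called higher in the same settings. Cx3cr1, the microglial fractalkine receptor, stood at 0.655, 0.590 and 0.477 CPM under DMSO, then at 22.2, 46.3 and 1.16 CPM in libraries 4, 5 and 6 (adjusted p = 0.0895 by edgeR). Of 12 oligodendrocyte lineage markers, 0 were called by edgeR with all 6 libraries. Without library 6, 6 were called higher and 2 lower, where 16.5 and 17.1% of all tested genes were. By DESeq2 4 were called higher and 2 lower, where 4.89 and 5.98% of all tested genes were. The part of these cells in the values of Malat1 and Neat1 was not tested. Gas5 lay at 0.59, 0.76 and 0.56 in libraries 4, 5 and 6, and the part of these cells in its values was not tested either.

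**Figure D3:**
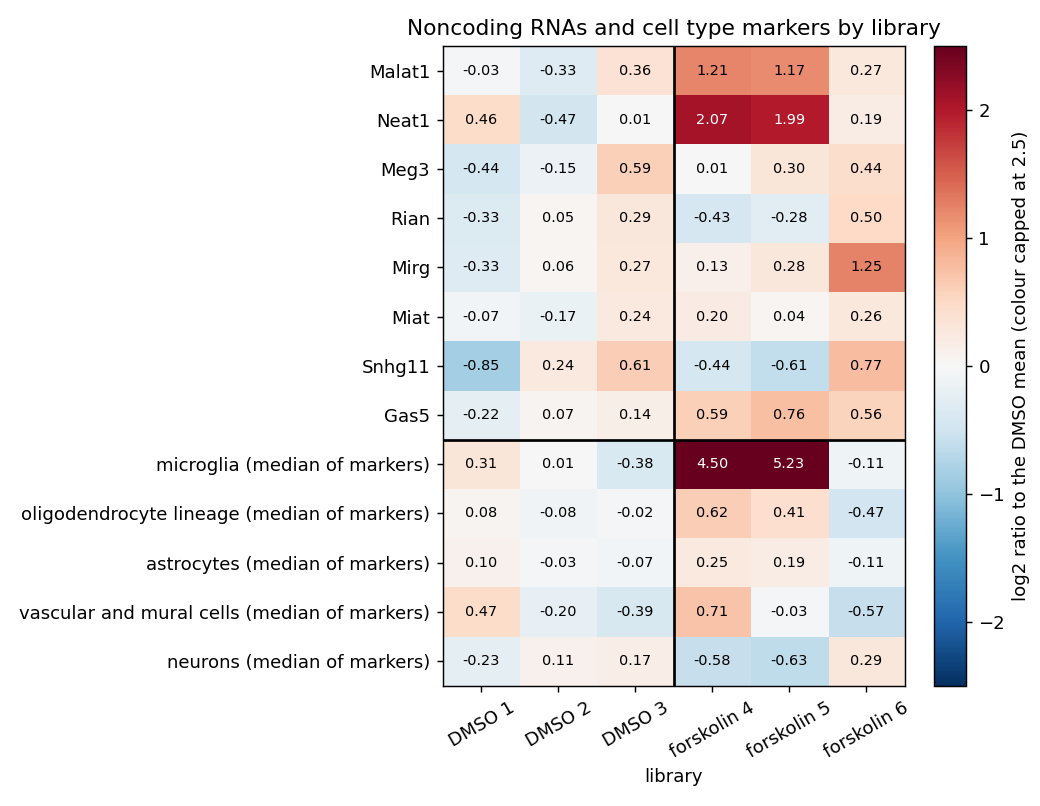
Log2 ratio to the DMSO mean in each library (columns) for the 8 noncoding RNAs and, below the line, for the median of the marker genes of 5 cell types, coloured from blue (lower) to red (higher). Neat1, Malat1 and the microglia median are high in libraries 4 and 5, Mirg is highest in library 6, and Gas5 is raised in all 3 forskolin libraries.

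Of the imprinted RNAs of the Dlk1-Dio3 domain, 0 of 3 were called with all 6 libraries, and none had groups that did not overlap. Meg3 stood at 50.5, 61.5 and 103 CPM in DMSO libraries 1 to 3, then at 68.6, 84.3 and 93.0 CPM in libraries 4, 5 and 6. All of the forskolin values fell inside the DMSO range, and the log2 fold change was 0.19 ± 0.27 (SE; adjusted p = 0.695 by edgeR). Without library 3, the highest, it was 0.54 (adjusted p = 0.219 by edgeR).

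Rian, the host of a C/D snoRNA array, stood at 196, 255 and 301 CPM under DMSO, then at 183, 203 and 348 CPM in libraries 4, 5 and 6. Library 4 lay below the lowest DMSO value, library 5 within the DMSO range and library 6 above the highest value (log2 change -0.03 ± 0.28 SE; adjusted p = 0.951 by edgeR). Its longest transcript has a GC content of 35.8%, with 0.698% of tested genes below it. With the GC trend removed its log2 fold change was -0.61 ± 0.36 (SE; adjusted p = 0.483 by edgeR). With library 6 left out as well it was -1.19 ± 0.11 (SE), and Rian was then called lower (adjusted p = 0.00303 by edgeR), where 16.1% of genes were lower and 32% were called. In that setting 8 of the 14 neuron markers were called lower too. The log2 ratios of Rian to the DMSO mean in libraries 1 to 6 were -0.33, 0.05, 0.29, -0.43, -0.28 and 0.50, beside medians of the neuron markers of -0.23, 0.11, 0.17, -0.58, -0.63 and 0.29. The part of neuron content in the Rian values was not tested.

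Mirg, the host of a microRNA cluster, stood at 12.6, 16.5 and 19.1 CPM under DMSO, then at 17.3, 19.2 and 37.6 CPM in libraries 4, 5 and 6. Library 6 was the highest and the other forskolin libraries lay near DMSO library 3 (log2 change 0.62 ± 0.33 SE; adjusted p = 0.303 by edgeR). Without library 6 the log2 fold change was 0.17 (adjusted p = 0.521 by edgeR).

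The counts of Mirg were also set against those of Rian in the same library. Mirg made up 6.06, 6.09 and 5.98% of the counts of Mirg and Rian in DMSO libraries 1 to 3, then 8.64, 8.65 and 9.76% in forskolin libraries 4 to 6. The share averaged 6.04 ± 0.0548% (SD, n = 3) and 9.02 ± 0.642% (SD, n = 3), 1.49 times higher with forskolin, with no overlap between the groups. The exact two-sided permutation test gave p = 0.1, the smallest it can give, and 0.267 when adjusted over the same 4 pairs, which were chosen with the counts known. This was the 1 pair of the 4 without overlap. Among single genes 26.5% of all tested had groups that did not overlap, and no such share was computed for other pairs of genes. The spread among the DMSO libraries was smaller than the counting error, since the exact 95% binomial interval of library 1 ran from 5.50 to 6.66% on 6683 counts. Such intervals cover counting error only. The highest upper bound in the DMSO libraries, 6.66%, lay below the lowest lower bound in the forskolin libraries, 8.03% in library 5. Without library 6 the difference was 2.61 percentage points, against 2.98 with it. This share needs no library scaling. The GC contents differ, at 51.9% for Mirg and 35.8% for Rian, and with the GC trend removed the difference was 6.70 percentage points. The DMSO libraries were then at 3.83, 4.48 and 6.16% and the forskolin libraries at 10.6, 13.5 and 10.5%, still without overlap. Against Meg3, whose GC content is 49.2%, Mirg did not separate the groups, at 20.02, 21.1 and 15.7% of the counts of both and then 20.2, 18.6 and 28.8% (exact permutation p = 0.5, adjusted 0.5). Meg3 made up 20.5, 19.5 and 25.5% of the counts of Meg3 and Rian under DMSO, then 27.2, 29.4 and 21.1% in libraries 4, 5 and 6 (exact permutation p = 0.2, adjusted 0.267).

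**Figure D4:**
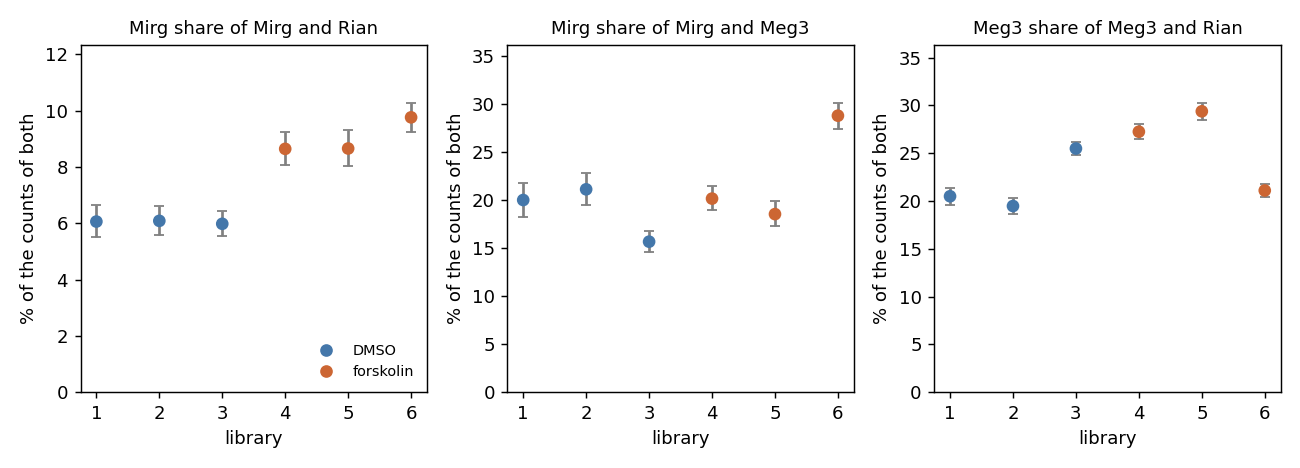
Share of one imprinted RNA in the summed counts of a pair, in percent from 0, by library, with exact 95% binomial intervals as bars and colour for the group. The Mirg share of Mirg and Rian lies near 6% in libraries 1 to 3 and from 8.64 to 9.76% in libraries 4 to 6, while the other 2 pairs overlap between the groups.

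Among microRNA rows, 14 lie inside Mirg, and 9 of them had any count. Mir453 had 13, 9 and 12 counts under DMSO, then 27, 23 and 44 counts in libraries 4, 5 and 6, with no overlap in CPM either (log2 change 1.29 ± 0.42 SE; adjusted p = 0.159 by edgeR). It was singled out after its values were seen. Mir541 instead had 5, 186 and 21 counts and then 216, 103 and 29 counts, high in libraries 2, 4 and 5 as the Gas5 snoRNAs were. Such rows count fragments over the hairpin and do not measure the mature microRNA.

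Protein-coding and other neighbours of the domain were given by 8 tested genes of 9 listed. Of these 1 was called lower and 0 higher, with a median log2 fold change of -0.21, where 1.34% of all tested genes were called lower. The count was 0 with RLE factors and with the GC trend removed, so that the call of Begain was lost, 1 with DESeq2, 3 without library 6 and 4 with quality weights, each of them lower, where 5.98, 17.1 and 20.9% of all tested genes were lower in the last 3 settings. Begain, a postsynaptic protein gene at the edge of the domain, fell from 27.7, 32.8 and 29.4 CPM to 13.0, 13.2 and 17.4 CPM (log2 change -1.05 ± 0.16 SE; adjusted p = 0.0402 by edgeR). Rtl1, the paternally expressed retrotransposon-derived gene antisense to microRNAs of the domain, stood at 4.37, 6.43 and 6.92 CPM and then 4.99, 6.25 and 9.52 CPM (adjusted p = 0.681 by edgeR). Of 20 other imprinted genes, 0 were called, with a median log2 fold change of -0.14. The count was 1 with DESeq2 (Ndn), 6 without library 6 (1 higher and 5 lower, Ndn among them) and 8 with quality weights, where 10.9, 33.6 and 41.9% of all tested genes were called. Ndn, the neuronal gene for necdin, stood at 313 ± 18.9 CPM in DMSO and 182 ± 36.5 CPM in forskolin libraries without overlap (SD, n = 3; log2 change -0.78; adjusted p = 0.0785 by edgeR). Kcnq1ot1, an imprinted antisense RNA, stood at 12.3, 12.1 and 17.3 CPM and then 21.9, 31.8 and 15.5 CPM (adjusted p = 0.202 by edgeR).

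Miat had the smallest spread of the 8 over the 6 libraries. It stood at 32.6, 30.5 and 40.4 CPM under DMSO, then at 39.2, 35.3 and 41.0 CPM in libraries 4, 5 and 6. The groups overlapped, and the log2 fold change was 0.16 ± 0.14 (SE; adjusted p = 0.518 by edgeR). It was 0.36 ± 0.16 (SE) with the GC trend removed (adjusted p = 0.428 by edgeR), Miat having the highest GC content of the 8 at 55.1%.

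Snhg11, a snoRNA host expressed in neurons, stood at 6.49, 13.8 and 17.9 CPM under DMSO, then at 8.64, 7.66 and 19.99 CPM in libraries 4, 5 and 6. Libraries 1, 4 and 5 were low and libraries 2, 3 and 6 high, across the groups (log2 change -0.08 ± 0.49 SE; adjusted p = 0.937 by edgeR). Libraries 1, 4 and 5 also had the lowest medians of the 14 neuron markers, at -0.23, -0.58 and -0.63 on the log2 scale relative to the DMSO mean, against 0.11, 0.17 and 0.29 in libraries 2, 3 and 6. The part of neuron content in the Snhg11 values was not tested. Of the 14 neuron markers, 1 was called lower: Rbfox3, which encodes NeuN, fell from 77.9 ± 7.88 to 42.6 ± 4.69 CPM (SD, n = 3; log2 change -0.87; adjusted p = 0.0392 by edgeR). With RLE factors and with the GC trend removed 0 of the 14 were called, so that this call was lost, and 4 were lower with DESeq2, 7 without library 6 and 8 with quality weights, where 5.98, 17.1 and 20.9% of all tested genes were lower.

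**Figure D5:**
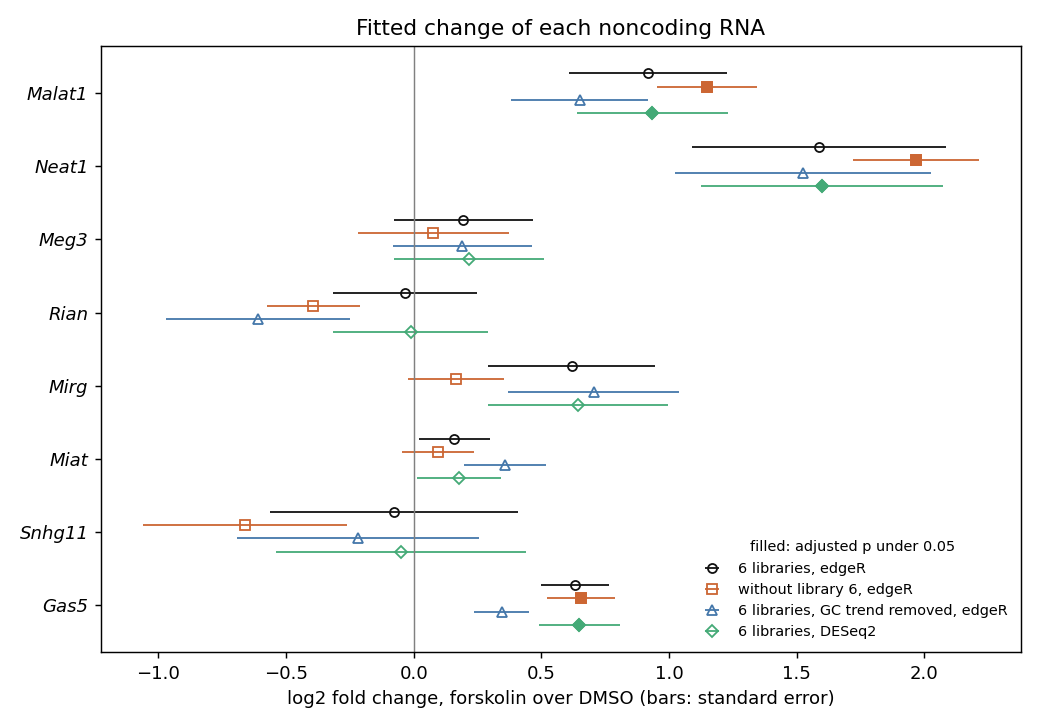
Fitted log2 fold change of each noncoding RNA, forskolin over DMSO, with its standard error, from edgeR with 6 libraries, edgeR without library 6, edgeR with the GC trend removed and DESeq2; filled symbols have an adjusted p under 0.05. Malat1, Neat1 and Gas5 are to the right of 0 in all 4 and filled in 2 of them.

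Together the 8 RNAs held 1261, 1166 and 1733 CPM under DMSO, then 2590, 2567 and 1728 CPM in libraries 4, 5 and 6 (exact two-sided permutation test, p = 0.2). Library 6 lay just below DMSO library 3. Most of this was Malat1, without which the sums were 336, 414 and 523 CPM and then 402, 436 and 593 CPM (exact permutation p = 0.6). As a part of all long noncoding counts, the 7 members that GENCODE classes as such were higher in every forskolin library than in any DMSO library, with 10.3, 11.3 and 16.6% under DMSO, then 26.4, 27.5 and 25.2% in libraries 4, 5 and 6 (p = 0.1 by exact permutation, the smallest possible). Malat1 alone held 7.56, 7.35 and 11.7% and then 22.4, 22.9 and 16.7%. The other 6 held 2.70, 3.92 and 4.88% and then 4.02, 4.60 and 8.44%, which overlapped (exact permutation p = 0.4). The total that these shares refer to was itself lower with forskolin, at 1.38, 0.998 and 1.05% of all counts and then 0.969, 0.860 and 0.666%, and in CPM Malat1 overlapped between the groups. Gm26917, an abundant noncoding row, took 39.4, 33.9 and 27.8% of the same counts and then 18.5, 14.9 and 4.95%. With Gm26917 left out the 7 members held 16.9, 17.1 and 23.0% and then 32.4, 32.2 and 26.5%, still without overlap.

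Proteins that work with these RNAs were compared with the share of all tested genes called by edgeR, 1.51%. Of 16 nuclear speckle proteins, 0 were called by edgeR with all 6 libraries and 4 without library 6. Those 4 were 2 higher and 2 lower, where 33.6% of genes were called. DESeq2 called 1 and quality weights 8, where 10.9 and 41.9% of all tested genes were called. With all 6 libraries 7 lay above and 4 below the DMSO range in every forskolin library, beside 10.2 and 16.2% of all tested genes. The median log2 fold change was 0.21. Sf3b1, a core splicing factor, stood at 238 ± 32.1 CPM in DMSO and 313 ± 7.32 CPM in forskolin libraries (SD, n = 3; adjusted p = 0.172 by edgeR), and Srsf2, an SR splicing factor, at 78.9 ± 4.999 and 62.2 ± 4.56 CPM (adjusted p = 0.152 by edgeR). Of 16 paraspeckle proteins, 0 were called, with a median of 0.01. Without library 6, with DESeq2 and with quality weights 2 were called lower, where 17.1, 5.98 and 20.9% of all tested genes were. Dazap1, an RNA-binding protein of paraspeckles, stood at 31.8 ± 2.06 and 19.8 ± 2.73 CPM (log2 change -0.69; adjusted p = 0.0718 by edgeR), and Tardbp, the gene for TDP-43, at 44.4 ± 2.26 and 50.7 ± 1.82 CPM (adjusted p = 0.284 by edgeR).

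Other snoRNA hosts were given by a list of 16. Of these 10 were tested, 0 were called, 0 lay above the DMSO range in every forskolin library and 5 lay below it, with a median log2 fold change of -0.19. Without library 6, with DESeq2 and with quality weights 0 were called as well, where 33.6, 10.9 and 41.9% of all tested genes were. Snhg8 stood at 11.6, 11.3 and 10.1 CPM and then 9.80, 6.84 and 6.62 CPM (adjusted p = 0.211 by edgeR), and Snhg14, the long host of the Prader-Willi region snoRNAs, at 15.2, 21.7 and 26.3 CPM and then 24.6, 48.9 and 38.7 CPM (adjusted p = 0.180 by edgeR). Gas5 transcripts start with a terminal oligopyrimidine tract, like those of the translation machinery. Of 15 tested genes of that class, 0 were called, 1 lay above and 2 below the DMSO range in every forskolin library, with a median of -0.01. The count was 1 with DESeq2, 2 without library 6 and 3 with quality weights, where 10.9, 33.6 and 41.9% of all tested genes were called. Npm1, a nucleolar chaperone, stood at 65.4 ± 9.46 and 99.8 ± 28.3 CPM (adjusted p = 0.179 by edgeR), and Eef2, elongation factor 2, at 1174 ± 81.0 and 837 ± 56.1 CPM (adjusted p = 0.139 by edgeR). Among 12 nonsense-mediated decay factors 0 were called, with 2 above and 6 below the DMSO range and a median of -0.16. The count was 3 with DESeq2, Upf1 and Smg1 among them, 6 without library 6 (2 higher and 4 lower) and 7 with quality weights, beside the same 10.9, 33.6 and 41.9% of all tested genes. Upf1, the central helicase of that pathway, stood at 70.3 ± 4.81 and 52.8 ± 5.50 CPM (log2 change -0.41; adjusted p = 0.136 by edgeR), and Smg1, the kinase that phosphorylates it, at 92.1 ± 14.6 and 125 ± 8.23 CPM (log2 change 0.45; adjusted p = 0.158 by edgeR). For comparison, 10.2% of all tested genes lay above and 16.2% below the DMSO range in every forskolin library.

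Of 12 other brain long noncoding RNAs tested, 0 were called by edgeR with all 6 libraries, with a median log2 fold change of 0.19. The count was 2 with DESeq2, Ftx and Gm26917, 5 without library 6 (2 higher and 3 lower) and 6 with quality weights, beside 10.9, 33.6 and 41.9% of all tested genes. Ftx, a noncoding RNA of the X-inactivation centre, stood at 2.71, 2.26 and 3.34 CPM and then 4.33, 5.58 and 4.95 CPM (log2 change 0.84; adjusted p = 0.133 by edgeR). Gm26917 stood at 4814, 3468 and 2875 CPM and then 1809, 1386 and 336 CPM (log2 change -1.66; adjusted p = 0.175 by edgeR).

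The tested gene with the pattern most like each member was found by the root mean square difference of centred log2 CPM over the 6 libraries, among 13952 genes of at least 1 CPM. It was Nebl for Malat1 (0.07), Zic5 for Neat1 (0.14), Gprin3 for Meg3 (0.04), 4833422C13Rik for Rian (0.04) and Esrrg for Mirg (0.17). It was Tcaim for Miat (0.04) and Lyve1 for Gas5 (0.06). For Snhg11 it was Gm23600 (0.10), the snoRNA row inside Rian described above. Within a difference of 0.1 there were 216 genes for Miat, 52 for Rian, 17 for Gas5, 8 for Malat1 and 5 for Meg3. There was 1 for Snhg11 and 0 for Neat1 and Mirg.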

How the data were processed

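The values were raw counts, whole numbers per gene symbol, deposited by the authors with 1 column per library. Salmon, DESeq and build GRCm38 are named in the submitters' processing notes, with no version; strand setting and annotation are not given in the sources used here. A second deposited table lists 132 genes with the authors' log2 fold changes, their standard errors, a score, p-values and a mean signal, named so in the file headers.

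Tools were DESeq2 1.42.0, limma 3.58.1 and edgeR 4.0.16 under R 4.3.3. The filter was filterByExpr (minimum count 10, minimum total 15). Libraries were scaled with TMM and genes tested with glmQLFit and glmQLFTest on the group alone, with Benjamini-Hochberg adjustment over 16233 genes and a threshold of 0.05. The code was run on simulated counts, where recovery of changed genes was required only at a spread far below that of these libraries. Standard errors are the absolute log2 fold change over the square root of F. Single library values were compared by exact permutation of 3 against 3. The GC trend was a lowess curve (span 0.3) per library on the GC content of the longest GENCODE M21 transcript, entered as an offset; 96.7% of rows matched GENCODE by symbol. Beside the 8 analysed members, which were named by rule, each list gave up to 3 called genes per direction, or else the 1 with the smallest p. Members and lists were chosen with earlier results of these data known. Markers of astrocytes and vascular cells were also listed. Of 12 astrocyte markers 0 were called by edgeR, and 2 higher and 2 lower without library 6. With the GC trend removed as well 6 were called, and with quality weights 4. Of 9 vascular markers 0 were called, and 1 higher without library 6. Of all tested genes 33.6% were called without library 6, 32% with the GC trend removed as well and 41.9% with quality weights. The alternatives are in the closing section. One marker gene is not reported here. The snoRNA settings and sets of libraries were chosen after seeing the data.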

Additional observations from a re-analysis of the deposited data

How the results depend on the processing

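Across 18 alternatives Malat1, Neat1, Meg3, Mirg, Miat and Gas5 kept a positive log2 fold change in each. Their ranges were 0.65 to 1.24 for Malat1, 1.30 to 2.07 for Neat1, 0.03 to 0.54 for Meg3, 0.17 to 0.82 for Mirg, 0.06 to 0.36 for Miat and 0.34 to 0.69 for Gas5. Malat1 and Neat1 were called in 4 alternatives each and Gas5 in 3. Rian changed direction without library 2 (0.01), without library 3 (0.11), without library 4 (0.14), without library 5 (0.12) and with the snoRNA share as a covariate (0.045); without library 6 it was -0.39. Snhg11 did so without library 2 (0.03), 3 (0.24), 4 (0.12) and 5 (0.20), and was -0.66 without library 6. The cause was not tested. The number of genes called was 245 with edgeR, 137 with RLE factors, 1765 with DESeq2, 6794 with quality weights in limma-voom, 0 with the GC trend removed and 5429 with library 6 left out as well, and 0 with the snoRNA covariate, a setting chosen after seeing the data. With 1 library left out it ranged from 0 (without any one of libraries 1 to 5, which left 1945 to 3216 genes at an unadjusted p under 0.05) to 5698 (without library 6). With the GC trend removed, 1949 genes had an unadjusted p under 0.05, against 3619 without the correction, and no other tool was run with it removed. Members called were 0 with edgeR, and 3 each with DESeq2, with quality weights and with the GC trend removed without library 6 (Malat1 and Neat1 higher, Rian lower). With 1 library left out they ranged from 0 to 3, the 3 being without library 6. The log2 ratio of the summed level was 0.73, and 0.17 with Malat1 left out, an alternative chosen after seeing the data. No paired analysis was possible because the libraries are numbered 1 to 6 across both groups and share no number. Depth did not limit the members, whose lowest count was 208, but did limit the single snoRNA and microRNA rows.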

Other observations

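The split of libraries seen in the snoRNAs of Gas5 and Snhg1 was wider than these hosts. Of 158 snoRNA rows with at least 100 counts in all, 98 (62.0%) were higher as a share of counts in each of libraries 2, 4 and 5 than in any of libraries 1, 3 and 6. The 158 include rows inside Gas5 and Snhg1, and the split was defined after these counts were seen. Its share over all tested genes is not given here. The 22 mitochondrial tRNA rows, another class of short RNA, held 0.0241, 0.0173 and 0.0249% of counts in libraries 2, 4 and 5. In libraries 1, 3 and 6 they held 0.00168, 0.00222 and 0.00182%. The 46 rows of small Cajal body RNAs did not show it, at 0.0445, 0.0371 and 0.0301% in the first set and 0.0495, 0.0336 and 0.0360% in the other. The 2 mitochondrial ribosomal RNA rows did not follow it either, and separated the treatment groups instead, as given with Gas5 above.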
